A study of Mus musculus with 273 samples.

Results

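The Hox cluster miRNAs described here are mmu-mir-10a, mmu-mir-10b, mmu-mir-196a-1, mmu-mir-196a-2, mmu-mir-196b and mmu-mir-615. They were taken by name as the hairpins that lie inside the Hox gene clusters, and all 6 were present among the 1226 hairpins of the count tables. Levels were measured by small RNA sequencing in liver (77 libraries), hypothalamus (72), right striatum (46) and right cortex (78). The mice were male wild-type C57BL/6J, an inbred laboratory strain, aged 26 weeks and untreated as far as the labels say. Tissue was taken every 3 h up to 36 h, and the series was made to follow daily change. Striatum had no library at 15 h and 2 at 18 h. The 6 members together were followed in 273 libraries, in which the tissues of 1 animal share an animal code.

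Hox genes encode transcription factors that give cells their position along the body axis, and they are used in the embryonic hindbrain and trunk rather than the forebrain. The miR-10 and miR-196 genes lie between or within Hox genes, share transcription units with them in part, and have Hox messenger RNAs among their targets. A mature miRNA finds its targets mainly through its seed, bases 2 to 8 from the 5′ end, so miRNAs with 1 seed are counted as 1 family. miR-10a and miR-10b are also abundant in several adult organs, whereas miR-196 is best known from the posterior embryo, where in mouse it directs cleavage of Hoxb8 messenger RNA. miR-615 is hosted by an intron of Hoxc5.

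The mature sequences below are shown because they set the families apart and because the miR-10 pair differs by 1 base. They are from RefSeq (GRCm38.p6), and capitals mark the seed.

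mmu-miR-10a-5p: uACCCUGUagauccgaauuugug

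mmu-miR-10b-5p: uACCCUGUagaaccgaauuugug

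mmu-miR-196a-5p: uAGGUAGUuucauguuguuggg

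mmu-miR-196b-5p: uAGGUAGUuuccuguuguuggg

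mmu-miR-615-3p: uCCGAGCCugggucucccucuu

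mmu-miR-99a-5p: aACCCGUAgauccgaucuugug

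mmu-miR-99b-5p: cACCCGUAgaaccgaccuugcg

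mmu-miR-100-5p: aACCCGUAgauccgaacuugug

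The first 5 are arms of the Hox cluster members, and the last 3 are the miR-99 and miR-100 arms, which resemble miR-10 outside the Hox clusters. The miR-10 arms are 23 bases long and differ by U12A, counted from 1 at the 5′ end of miR-10a-5p. The miR-196 arms are 22 bases long and differ by A12C, counted likewise from miR-196a-5p. The seed ACCCUGU was held by 2 of the 1679 mature mouse names in RefSeq, both miR-10, and AGGUAGU by 2, both miR-196. CCGAGCC was held by miR-615-3p alone, and ACCCGUA by the 3 arms of miR-99a, miR-99b and miR-100. The mmu-miR-196a-5p sequence is read from 2 loci, mmu-mir-196a-1 and mmu-mir-196a-2.

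All positions are in GRCm38 and were the same in the GENCODE and RefSeq annotations. Mir10a lies at chr11:96317165-96317274 on the plus strand, outside annotated genes, 992 bases from Hoxb4 and 11043 from Hoxb5. Mir10b lies at chr2:74726070-74726137 on the plus strand, in an intron of 2 Hoxd4 transcripts and of 1 Hoxd3 transcript. Both miR-10 genes thus lie by Hox genes of the same paralog group, Hoxb4 and Hoxd4. Mir196a-1 lies at chr11:96265164-96265265 on the plus strand, between Hoxb13 (67716 bases away) and Hoxb9 (6191 bases away). Mir196a-2 lies at chr15:102973350-102973434 on the plus strand, in an intron of 1 Hoxc5 transcript, 1456 bases from Hoxc10 and 3004 from Hoxc9. Mir196b lies at chr6:52230081-52230165 on the minus strand within Hoxa9, in an exon of 2 transcripts and an intron of 1, outside coding sequence, and 1031 bases from Hoxa10. Mir615 lies at chr15:103014910-103015001 on the plus strand, in an intron of 2 Hoxc5 transcripts. Each of the Hoxa, Hoxb, Hoxc and Hoxd clusters holds at least 1 member.

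Total counts per library ran from 1988671 to 5236177 in liver, from 1079380 to 3954710 in hypothalamus, from 26341 to 4022070 in striatum and from 1164449 to 4980887 in cortex. The lowest striatum library held 7 counts of mmu-mir-10a and 5 of mmu-mir-10b, and the next lowest total was 743902. Levels are given in CPM, the count a miRNA would have in a library of 1000000 counts. A library without a count still allows 3 counts, which is 0.573 to 1.51 CPM in liver, 0.759 to 2.78 in hypothalamus, 0.746 to 113.9 in striatum and 0.602 to 2.58 in cortex. These limits and the intervals below cover counting error only. The tissue labels were checked with marker miRNAs. The 4 hepatocyte markers summed to a median of 314589 CPM in liver and to 2047 CPM in hypothalamus, 2253 in striatum and 2077 in cortex. The 8 neuron markers summed to 8.79 CPM in liver, where 6 of them were at a median of 0, and to 3140, 8706 and 21368 CPM in hypothalamus, striatum and cortex. In brain this sum is nearly all mmu-mir-128-1 and mmu-mir-128-2, at medians of 14190 and 7114 CPM in cortex. mmu-mir-124-2 ran the other way, at 10.9, 6.39 and 3.80 CPM in hypothalamus, striatum and cortex. The defining neuronal hairpins of miR-124 and miR-9, whose mature forms come from several genomic copies, had medians between 0 and 16.4 CPM in brain, so low counts of a multi-copy hairpin do not by themselves show a low miRNA. The overall miRNA profile of 9 libraries stood apart from their tissue (2 each in liver, hypothalamus and striatum, 3 in cortex), and results that rest on them are given with and without them.

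mmu-mir-10a was a liver miRNA in these data, the fifth most abundant there and far lower in the brain regions. In liver it ran from 38242 through a median of 48270 to 122387 CPM, with a mean of 49948 ± 10076 CPM (SD, n = 77). In hypothalamus it ran from 419.7 through 636.2 to 1274 CPM (668 ± 157, n = 72), and in striatum from 175.7 through 465.8 to 1475 CPM (497 ± 251, n = 46). In cortex it ran from 138.3 through 262.1 to 624.98 CPM (272 ± 83.5, n = 78). Every liver library lay above every brain library, while the ranges of the brain regions overlapped. The ratio of mean CPM was 74.8 for liver over hypothalamus, 100.5 for liver over striatum and 183.9 for liver over cortex. The highest liver value was in ZT9 replicate 4, whose profile stood apart and whose blood markers summed to 8038 CPM, against a liver median of 2504 CPM. A sum that high needs mmu-mir-451a, which reached 6444 CPM in liver from a median of 794 CPM. The other blood markers reached at most 2432 CPM there, so the sum does not show a rise of the whole list. Without the 9 libraries that stood apart the liver mean was 48702 ± 5081 CPM (n = 75). In whole tissue, fewer cells of a type and less RNA per cell cannot be told apart.

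The tissue differences were tested with edgeR's quasi-likelihood test with TMM scaling in 1 fit of all libraries, and a call needed an adjusted p (Benjamini-Hochberg) under 0.05 and a log2 ratio of at least 1. Of the members, mmu-mir-10a and mmu-mir-10b passed the filter on low counts, and the other 4 did not. Both were called higher in liver than in hypothalamus, striatum and cortex, where 29.2%, 28.7% and 27.3% of the 414 tested miRNAs were called higher. This background depends on the scaling, since 121, 119 and 113 miRNAs were called higher and 217, 220 and 221 lower under TMM, but 51, 56 and 49 higher and 293, 292 and 300 lower on library totals. For mmu-mir-10a the log2 ratio was 8.19 ± 0.10 (SE) over hypothalamus (adjusted p = 1.3e-193), 8.56 ± 0.12 over striatum (3.8e-173) and 9.44 ± 0.10 over cortex (7.1e-208). Among the tested miRNAs these ratios were the 10th, 10th and 5th highest. The size of these ratios depends on the scaling. The median log2 ratio of all tested miRNAs for liver over cortex was -1.31 under TMM, -1.48 under the size factors of DESeq2, and -3.23 on library totals. Against that median mmu-mir-10a was higher by 10.75, 10.76 and 10.76. A scaling shifts all miRNAs of a comparison by nearly the same amount, so this agreement follows from the method and tests nothing.

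mmu-mir-10b shares the seed of mmu-mir-10a but not its liver level. In liver it ran from 292.9 through a median of 1157 to 3238 CPM (1217 ± 395, SD, n = 77), and in hypothalamus from 244.0 through 561.5 to 1483 CPM (607 ± 245, n = 72). In striatum it ran from 37.8 through 271.5 to 4844 CPM (532 ± 895, n = 46), and in cortex from 118.0 through 325.7 to 716.8 CPM (346 ± 127.97, n = 78). The range of each tissue overlapped every other one, and the highest single value of mmu-mir-10b was in striatum. The fitted log2 ratio was 2.98 ± 0.15 for liver over hypothalamus (edgeR's quasi-likelihood test, adjusted p = 2.6e-56), 3.11 ± 0.18 over striatum (2.0e-45) and 3.74 ± 0.15 over cortex (1.2e-73). On library totals these ratios were 1.01, 1.24 and 1.82, which all passed the call as well.

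**Figure D1:**
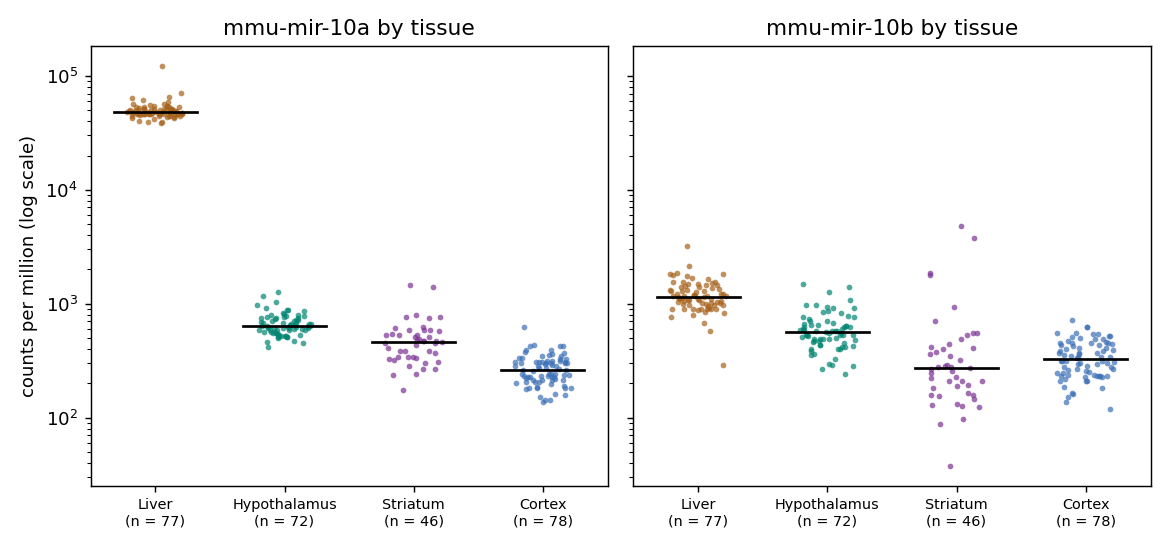
Level of mmu-mir-10a (left) and mmu-mir-10b (right) in CPM on a log scale, 1 point per library, with the median as a line. All liver points of mmu-mir-10a, 38242 CPM and above, lie over all brain points, 1475 CPM and below, whereas the tissues overlap for mmu-mir-10b, whose striatum points reach 4844 CPM.

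Within the brain the order of mmu-mir-10a was hypothalamus, striatum, cortex. It was called higher in hypothalamus than in cortex, with a log2 ratio of 1.25 ± 0.07 (edgeR's quasi-likelihood test, adjusted p = 5.0e-46), in a comparison that called 17.1% of the tested miRNAs higher. The difference of hypothalamus over striatum was 0.37 ± 0.08 (adjusted p = 2.0e-05) and that of striatum over cortex 0.88 ± 0.08 (8.3e-23), both past the adjusted p and under the log2 ratio of 1. With DESeq2 size factors, which put the median of all tested miRNAs at 0.18, against 0.04 with TMM, striatum over cortex was 1.01 and counted as a call. In hypothalamus over striatum and in striatum over cortex edgeR called 0 members, beside 8.45% and 7.73% of the tested miRNAs called higher. At an unadjusted p under 0.05 these comparisons held 1 and 2 of the 2 members tested, beside 314 and 322 of the 414 tested miRNAs. DESeq2 called 0 and 1 members, beside 49 and 64 of 408 miRNAs called in either direction.

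For mmu-mir-10b the gaps between the brain regions changed with the libraries in the fit. Point estimates in the fits given here kept the order hypothalamus, striatum, cortex, but in some fits striatum and cortex were nearly equal. The log2 ratio of hypothalamus over cortex was 0.76 ± 0.13 (edgeR's quasi-likelihood test, adjusted p = 6.3e-08), under the log2 ratio of 1 that a call needed. With DESeq2 size factors it was 1.03 and called, but relative to the median of all tested miRNAs it was 0.71 under both scalings. Hypothalamus over striatum was 0.13 ± 0.16 (adjusted p = 0.46, 95% interval -0.18 to 0.44), and striatum over cortex was 0.63 ± 0.16 (adjusted p = 0.00012). Both values turned on 2 striatum libraries, ZT6 replicate 5 and ZT21 replicate 3. Without them striatum over cortex was 0.06 (adjusted p = 0.66) and hypothalamus over striatum 0.69 (7.9e-07), and without ZT21 replicate 3 alone they were 0.34 (0.023) and 0.41 (0.0069). With the animal code as a block they were 0.01 (adjusted p = 0.98) and 0.74 (1.8e-05). The striatum median, 271.5 CPM, was below the cortex median, 325.7 CPM, although the striatum mean was above the cortex mean.

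The balance between the miR-10 genes separated liver from every brain region, and it does not depend on scaling because both counts come from 1 library. In liver the ratio of mmu-mir-10b to mmu-mir-10a ran from 0.00589 through a median of 0.0239 to 0.0399 (n = 77), so the median library held 41.8 counts of mmu-mir-10a for each count of mmu-mir-10b. In hypothalamus it ran from 0.514 through 0.881 to 1.88 (n = 72), in striatum from 0.218 through 0.637 to 3.45 (n = 46) and in cortex from 0.508 through 1.29 to 2.68 (n = 78). mmu-mir-10b was the higher of the pair in 0 of 77 liver, 15 of 72 hypothalamus, 7 of 46 striatum and 61 of 78 cortex libraries. Liver did not overlap any brain region, and the brain regions overlapped each other. Cortex was the only tissue of the 4 with a median ratio above 1.

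On the log2 scale, with 0.5 counts added to both, the ratio averaged -5.41 ± 0.42 in liver, -0.20 ± 0.34 in hypothalamus, -0.58 ± 0.88 in striatum and 0.31 ± 0.50 in cortex (SD, n as above). All 6 pairs of tissues differed in a two-sided permutation test with 100000 resamples, adjusted over the 6 pairs. The difference was -5.21 ± 0.06 (SE) for liver minus hypothalamus, -4.83 ± 0.14 for liver minus striatum and -5.72 ± 0.07 for liver minus cortex. Within the brain it was -0.52 ± 0.07 for hypothalamus minus cortex and -0.90 ± 0.14 for striatum minus cortex. These 5 had p = 1e-05, the smallest these resamples can give, and adjusted p = 1.2e-05. Hypothalamus minus striatum was 0.38 ± 0.14 (permutation p = 0.0012, adjusted 0.0012). The same signs appeared inside single animals, matched by animal code. The ratio was lower in liver in 71 of 71 animals against hypothalamus, in 44 of 44 against striatum and in 77 of 77 against cortex. It was lower in hypothalamus than in cortex in 54 of 72 animals, lower in striatum than in cortex in 37 of 45, and higher in hypothalamus than in striatum in 32 of 43.

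**Figure D2:**
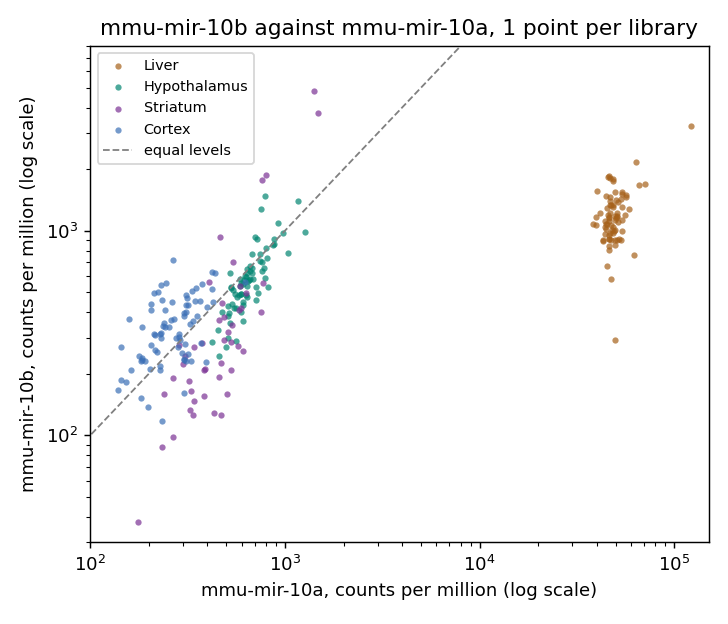
mmu-mir-10b against mmu-mir-10a in CPM, both axes on a log scale, 1 point per library coloured by tissue, with a dashed line of equal levels. Liver forms a separate cloud at ratios of 0.0399 and below, most cortex points (61 of 78) lie above the line, and a few striatum points rise along it to 4844 CPM of mmu-mir-10b.

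The striatum libraries spread most. The SD of mmu-mir-10b there was 168.4% of the mean, against 32.4% in liver, 40.3% in hypothalamus and 36.96% in cortex. The highest striatum libraries were ZT21 replicate 3 with 4844 CPM, ZT6 replicate 5 with 3754, ZT9 replicate 9 with 1871, ZT3 replicate 5 with 1777 and ZT12 replicate 1 with 927.8 CPM of mmu-mir-10b, and the lowest was ZT3 replicate 4 with 37.8 CPM. mmu-mir-10a was also high in the first 4 of these, at 1405, 1475, 796.6 and 758.6 CPM, and in each of the 5 the ratio of mmu-mir-10b to mmu-mir-10a was above 1, at 3.45, 2.54, 2.35, 2.34 and 2.00. The choroid plexus and vessel marker sums of these 5 libraries were above the striatum median, but not in the order of mmu-mir-10b. The 3 markers of choroid plexus and ependyma, which lie in and line the ventricles that border the striatum, summed to 34878, 25202, 105001, 68560 and 56090 CPM in these 5 libraries, against a striatum median of 14584 and a range of 7783 to 105001 CPM. This sum is nearly all mmu-mir-204, which ran from 7745 to 104951 CPM in striatum. There mmu-mir-211 reached at most 46.2 and mmu-mir-449a at most 59.6 CPM, so the sum follows 1 miRNA. The 3 vessel markers summed to 35360, 37667, 36046 and 38877 CPM in the first 4 and to 29398 CPM in ZT12 replicate 1, against a median of 26294 CPM. The library ZT0 replicate 4 had the second highest choroid plexus sum, 79662 CPM, with 704.3 CPM of mmu-mir-10b. ZT21 replicate 3 also had the highest hepatocyte sum of striatum, 7510 CPM, against a median of 2253 CPM, and was 1 of the 9 libraries whose profile stood apart. In striatum the hepatocyte sum is nearly all mmu-mir-192, which reached 7397 CPM there. mmu-mir-122, at a median of 21231 CPM in liver, reached at most 2.98 CPM in striatum. The part of these markers in the mmu-mir-10b level was not tested. None of the 3 choroid plexus markers was at a median of 0 in a brain region, and in the other brain regions the list summed to a median of 17619 CPM in hypothalamus and 4904 in cortex.

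**Figure D3:**
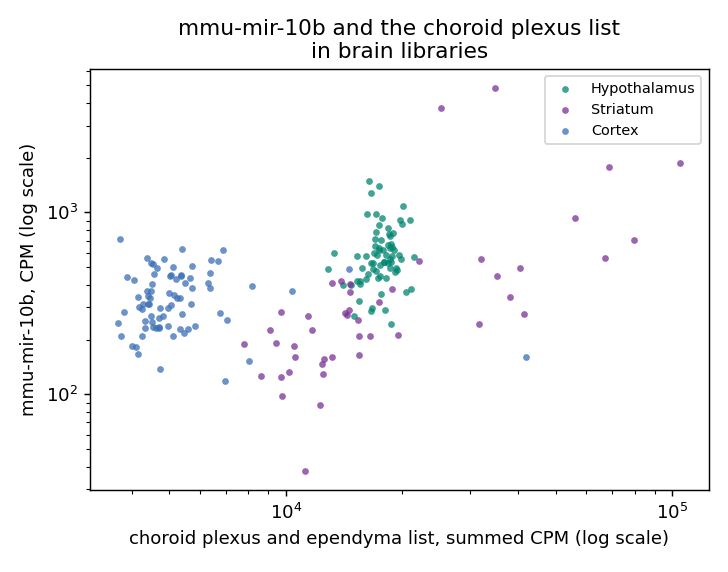
mmu-mir-10b against the summed level of the choroid plexus and ependyma markers (mmu-mir-204, mmu-mir-211 and mmu-mir-449a) in the brain libraries, both in CPM on log scales. The sum is nearly all mmu-mir-204. Striatum spreads over both axes, from 7783 to 105001 CPM of the list, with its 2 highest mmu-mir-10b libraries at 34878 and 25202 CPM of the list, while hypothalamus and most of cortex stay in narrow clouds.

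In liver the highest mmu-mir-10b library was ZT9 replicate 4, which was also the highest in mmu-mir-10a, and the lowest was ZT3 replicate 1 with 292.9 CPM at an ordinary 49797 CPM of mmu-mir-10a. The highest hypothalamus libraries were ZT3 replicate 6 with 1483 CPM and ZT12 replicate 11 with 1397 CPM. Their vessel markers summed to 35706 and 35974 CPM, against a hypothalamus median of 24221 CPM, and the part of these markers was not tested either.

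The level of mmu-mir-10a and that of mmu-mir-10b varied together between libraries of each brain region. Over log2(CPM + 1), Pearson's r was 0.81 and Spearman's rho 0.84 in hypothalamus (n = 72), 0.84 and 0.76 in striatum (n = 46), and 0.51 and 0.50 in cortex (n = 78). Each of these r and rho values had a permutation p = 1e-05, the smallest possible with 100000 resamples, and an adjusted p = 1.33e-05 over the 4 tissues. Without the 2 libraries farthest from the median of mmu-mir-10a, r was 0.80, 0.75 and 0.46. The libraries were also grouped into runs, with a new run wherever the L code of the labels changes along the library numbering. The labels do not explain this code, so a run is a grouping made here and not a stated batch. Centred within these runs, r was 0.72, 0.83 and 0.46. Within single runs it was positive in 7 of 7 in hypothalamus (0.60 to 0.92), in 3 of 3 in striatum (0.60 to 0.99) and in 4 of 7 in cortex (-0.27 to 0.86). In liver r was 0.40 and rho 0.24 (n = 77, permutation p = 0.00355 and 0.0317, both unchanged by adjustment). Without ZT9 replicate 4 and ZT12 replicate 4 r was 0.17 (permutation, adjusted p = 0.156), so the relation over all liver libraries did not hold without those 2. Centred within runs, with all 77 libraries, r was 0.37 (permutation, adjusted p = 0.00454), and within single liver runs it was positive in 4 of 5, from -0.19 to 0.93.

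The miR-196 genes and mmu-mir-615 were at the edge of detection in all 4 tissues. mmu-mir-196a-1 had 1 count in all liver libraries together, 3 in hypothalamus, 0 in striatum and 1 in cortex, and mmu-mir-196a-2 had 2, 6, 1 and 1. The 0 of striatum allows up to 0.0304 CPM over the summed total. Both genes give the same mature arm, so a read of that arm matches both loci, and how such reads were shared between the loci is not given in the sources used here. In the permutation test on mean CPM no difference between tissues passed for either, and the lowest adjusted p was 0.125, for mmu-mir-196a-2 in hypothalamus minus cortex. In the edgeR fit with no filter on low counts the same comparison of mmu-mir-196a-2 was called higher in hypothalamus (adjusted p = 0.0332), on the 6 counts of hypothalamus against 1 in cortex, whose exact 95% Poisson intervals of the summed rate overlapped (0.0133 to 0.0790 CPM in hypothalamus and 0.000106 to 0.0233 CPM in cortex).

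mmu-mir-196b, from the Hoxa cluster, was low but higher in liver than in every brain region. Its counts summed to 97 in liver, with at least 1 in 47 of 77 libraries, to 14 in hypothalamus (14 of 72 libraries), to 8 in striatum (6 of 46) and to 24 in cortex (20 of 78). Per library it ran from 0 through a median of 0.346 to 2.11 CPM in liver, while the median was 0 and the highest value 0.638, 0.621 and 0.865 CPM in hypothalamus, striatum and cortex. The summed rate was 0.422 CPM in liver (exact 95% Poisson interval 0.342 to 0.515), 0.0846 in hypothalamus (0.0463 to 0.142), 0.0810 in striatum (0.0350 to 0.160) and 0.1003 in cortex (0.0642 to 0.149). The single libraries overlapped, since every tissue had libraries without a count. Mean CPM differed by 0.34 ± 0.06 (SE) for liver minus hypothalamus (two-sided permutation test, adjusted over 24 tests, p = 6e-05), by 0.36 ± 0.06 for liver minus striatum (9.6e-05) and by 0.32 ± 0.06 for liver minus cortex (6e-05). Between brain regions the adjusted p was 0.493 to 0.888.

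mmu-mir-615, from the Hoxc5 intron, was lowest in cortex. At least 1 count was present in 61 of 77 liver, 44 of 72 hypothalamus, 20 of 46 striatum and 27 of 78 cortex libraries, and a single library held at most 6, 5, 26 and 3 counts in these tissues. Its median was 0.569 CPM in liver, 0.419 in hypothalamus and 0 in striatum and cortex, and its highest value 2.01, 1.70, 8.08 and 1.02 CPM in the 4 tissues. The summed rate was 0.627 CPM in liver (exact 95% Poisson interval 0.528 to 0.738), 0.459 in hypothalamus (0.362 to 0.575), 0.719 in striatum (0.561 to 0.907) and 0.130 in cortex (0.0880 to 0.184). The interval of cortex lay apart from the other 3, though single libraries overlapped. Mean CPM differed by 0.50 ± 0.06 for liver minus cortex (permutation test, adjusted p = 6e-05), by 0.31 ± 0.06 for hypothalamus minus cortex (6e-05) and by 0.49 ± 0.21 for striatum minus cortex (0.00068). The differences of liver minus hypothalamus, 0.19 ± 0.08 (adjusted p = 0.0673), and liver minus striatum, 0.01 ± 0.22 (adjusted p = 1), did not pass.

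Of the 71 striatum counts of mmu-mir-615, ZT21 replicate 3 held 26 and ZT6 replicate 5 held 9, and these were the 2 striatum libraries highest in mmu-mir-10b. Without these 2 the striatum held 36 counts, a summed rate of 0.383 CPM, and a mean of 0.349 ± 0.510 CPM (SD, n = 44). The difference of liver minus striatum was then 0.29 (adjusted p = 0.0144). On CPM with TMM-scaled totals, liver was higher than hypothalamus by 1.32 and than striatum by 1.18 (both adjusted p = 3.43e-05), so those 2 comparisons of mmu-mir-615 depend on the scaling.

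**Figure D4:**
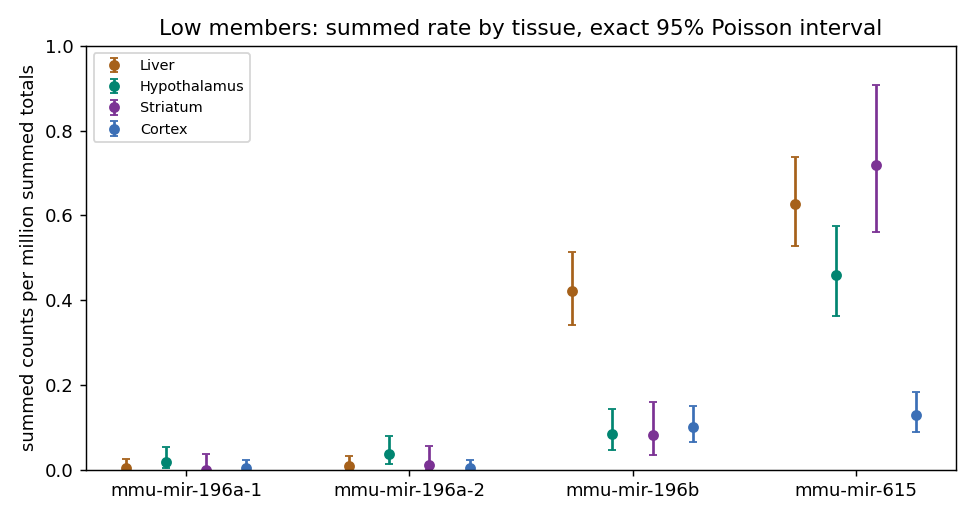
Summed rate of the 4 low members by tissue, as the sum of their counts over the sum of library totals in CPM, with exact 95% Poisson intervals that cover counting error only. mmu-mir-196a-1 and mmu-mir-196a-2 stay near 0, mmu-mir-196b stands at 0.422 in liver, and mmu-mir-615 is lowest in cortex at 0.130.

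Over the day the miR-10 genes showed no 24 h rhythm that passed the test. Time-point means of mmu-mir-10a ran from 44241 ± 3614 CPM at 18 h to 63458 ± 29553 at 9 h in liver (SD, n = 6 each), and the library with 122387 CPM is among those at 9 h. They ran from 588 ± 58.4 (6 h, n = 6) to 813 ± 321 (15 h, n = 5) in hypothalamus, from 271 ± 84.7 (3 h) to 694 ± 678 (6 h) in striatum (n = 3 each) and from 209 ± 63.1 (27 h) to 333 ± 177 (21 h) in cortex (n = 6 each). In each tissue the time with the highest mean of mmu-mir-10a also had the largest SD, and the same held for mmu-mir-10b. The time-point means of mmu-mir-10b ran from 897 ± 316 CPM (27 h) to 1792 ± 811 (9 h) in liver (n = 6 each), from 412 ± 90.5 (9 h, n = 4) to 838 ± 508 (3 h, n = 5) in hypothalamus, from 129 ± 93.3 (3 h) to 1333 ± 2097 (6 h) in striatum (n = 3 each) and from 243 ± 76.8 (30 h) to 448 ± 216 (0 h) in cortex (n = 6 each). Sine and cosine terms with a 24 h period were fitted in each tissue with edgeR. Neither of the 2 members passed in any tissue, where 4.69% of the tested miRNAs passed in liver, 0.290% in hypothalamus, 0.613% in striatum and 0.284% in cortex. At an unadjusted p under 0.05 the count of members was also 0 in each tissue. Over all tested miRNAs it was 43 of 213, 6 of 345, 11 of 326 and 13 of 352 in the same order. DESeq2 called 0 members, with no p for mmu-mir-10b in striatum, beside 12 of 163, 1 of 340, 0 of 320 and 3 of 351 miRNAs.

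The fitted peak-to-trough log2 range of mmu-mir-10a was 0.12 ± 0.08 in liver, 0.28 ± 0.13 in hypothalamus, 0.19 ± 0.30 in striatum and 0.34 ± 0.15 in cortex (edgeR's adjusted p from 0.561 to 0.999), and the striatum value was 0.33 without ZT21 replicate 3. That of mmu-mir-10b was 0.26 ± 0.14 in liver, 0.14 ± 0.20 in hypothalamus, 0.93 ± 0.61 in striatum and 0.30 ± 0.19 in cortex (adjusted p from 0.419 to 0.999). The upper 95% limits were 0.27, 0.53, 0.78 and 0.63 for mmu-mir-10a in these 4 tissues and 0.53, 0.53, 2.12 and 0.67 for mmu-mir-10b. A daily range larger than these limits lies outside the intervals, and the smallest range that could be detected was not determined. The intervals are approximate. Those of mmu-mir-10a in hypothalamus and cortex had lower limits of 0.029 and 0.045, although edgeR's unadjusted p was 0.0992 and 0.0819. In striatum the curve rests on no library at 15 h and 2 at 18 h.

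ZT0 to ZT12 were sampled on consecutive days, in a second passage (24 to 36 h) and a first (0 to 12 h), which were compared. mmu-mir-10b was lower in the second passage in cortex. There it ran from 118.0 through a median of 279.0 to 507.7 CPM in the second passage (293 ± 97.8, SD, n = 30), against 151.7 through 374.9 to 716.8 CPM in the first (388 ± 149, n = 30). The ranges overlapped. The log2 ratio was -0.45 ± 0.14 (edgeR's quasi-likelihood test, adjusted p = 0.0124), and this was 1 of 2 members called in a tissue where 35.1% of the tested miRNAs were called. mmu-mir-10a in cortex averaged 251 ± 72.7 CPM in the second passage and 275 ± 74.9 in the first, with a log2 ratio of -0.18 ± 0.11 (adjusted p = 0.198). The passages differ in their library runs, since 1 run held 6 second-passage cortex libraries and none of the first, and 2 runs held 3 and 2 first-passage libraries and none of the second. With run as a term mmu-mir-10b gave -0.45 ± 0.17 (adjusted p = 0.0428).

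In the other tissues edgeR called 0 of the 2 members and 0% of the tested miRNAs in liver, hypothalamus and striatum alike. Over all tested miRNAs 10, 3 and 46 had an unadjusted p under 0.05 there, and DESeq2 called 1, 0 and 0. Among members, mmu-mir-10b in liver alone was under that p, with a log2 ratio of -0.24 ± 0.12 (unadjusted p = 0.047, adjusted 0.915). It was 0.06 ± 0.16 in hypothalamus and 0.60 ± 0.47 in striatum, and that of mmu-mir-10a was -0.12 ± 0.07, -0.03 ± 0.09 and 0.17 ± 0.19 in liver, hypothalamus and striatum. Single libraries set the size of the striatum and hypothalamus values. In striatum mmu-mir-10b was at 1.28 without ZT6 replicate 5, 0.29 without ZT3 replicate 5 and 0.24 without ZT9 replicate 9, and mmu-mir-10a lay between 0.07 (without ZT3 replicate 5) and 0.37 (without ZT6 replicate 5). In hypothalamus mmu-mir-10b lay between 0.03 (without ZT9 replicate 4) and 0.13 (without ZT3 replicate 6), and mmu-mir-10a was at -0.02 without ZT3 replicate 6. Whether the passage difference itself differed between tissues was not tested.

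**Figure D5:**
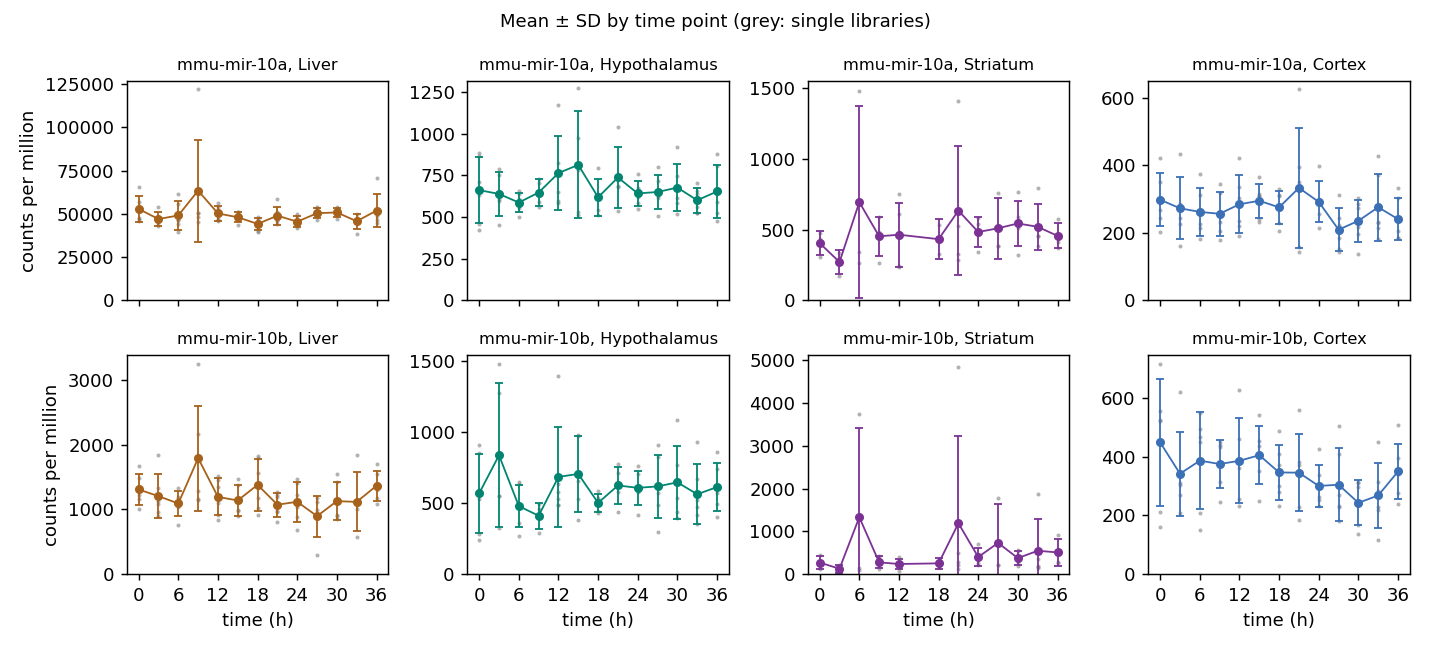
Level in CPM of mmu-mir-10a (upper row) and mmu-mir-10b (lower row) by time point in each tissue, as mean ± SD with single libraries in grey. The means with the widest bars, such as 63458 ± 29553 CPM at 9 h in liver and 694 ± 678 CPM at 6 h in striatum for mmu-mir-10a, hold single high libraries, and mmu-mir-10b in cortex is lower at 24 to 36 h than at 0 to 12 h.

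Library runs differed in the miR-10 level in hypothalamus and cortex. In hypothalamus the run means of mmu-mir-10a reached 835 ± 179 CPM (SD, n = 3) and were as low as 511 ± 27.6 (n = 6), and those of mmu-mir-10b reached 758 ± 184 (n = 11) and were as low as 374.5 ± 102 (n = 6). In cortex the highest and lowest run means were 392 ± 215 (n = 3) and 235 ± 72.4 (n = 11) for mmu-mir-10a, and 432 ± 192.4 (n = 3) and 243 ± 67.8 (n = 11) for mmu-mir-10b. With ZT in the fit, edgeR called both members in hypothalamus, where 78.0% of the tested miRNAs were called, with a largest log2 difference between runs of 1.01 (adjusted p = 2.1e-08) for mmu-mir-10a and 1.33 (1.4e-06) for mmu-mir-10b. It called both in cortex, where 73.0% were called, at 0.71 (0.0279) and 0.88 (0.0495). On library totals neither cortex difference passed (adjusted p = 0.204 and 0.174). In liver, where 32.9% were called, and in striatum, where 45.4% were, edgeR called 0 of the 2. At an unadjusted p under 0.05 the counts were 0 and 1, beside 94 of 213 and 173 of 326 tested miRNAs. DESeq2 called 0 and 1, beside 71 of 213 and 185 of 326. The largest fitted log2 difference between liver runs was 0.19 for mmu-mir-10a and 0.36 for mmu-mir-10b. Liver and brain libraries lie in separate runs apart from 1 hypothalamus library, so beyond that library run and the liver differences cannot be told apart, and a fit with run as a term rests on it. It gave log2 ratios of liver over cortex of 8.94 ± 0.72 for mmu-mir-10a and 3.37 ± 1.04 for mmu-mir-10b (edgeR, adjusted p = 1.1e-27 and 0.00187).

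The miR-99 and miR-100 genes, whose arms differ from miR-10 in the seed, did not share the liver level of mmu-mir-10a. mmu-mir-99b averaged 1729 ± 404 CPM in liver, against 14017 ± 3155 in hypothalamus, 15505 ± 5091 in striatum and 13398 ± 2819 in cortex (SD, n as above). mmu-mir-100 averaged 613 ± 123 CPM in liver and 6944 ± 1909, 9084 ± 2566 and 6592 ± 1476 CPM in the same order, and mmu-mir-99a 629 ± 123 and 2122 ± 543, 2075 ± 581 and 1744 ± 437 CPM. The liver ranges of mmu-mir-99b and mmu-mir-100 did not overlap those of any brain region. Their log2 ratios of liver over cortex were -1.05 ± 0.06 and -1.53 ± 0.06, both called lower with edgeR (adjusted p = 2.2e-48 and 6.9e-74). That of mmu-mir-99a was 0.44 ± 0.07 with TMM and -1.47 on library totals, so its direction depends on the scaling. Relative to the median of all tested miRNAs, the ratios of liver over cortex were 0.26 for mmu-mir-99b, -0.22 for mmu-mir-100 and 1.75 for mmu-mir-99a, beside 10.75 for mmu-mir-10a and 5.04 for mmu-mir-10b. In the cortex passages mmu-mir-99a fell by 0.38 and mmu-mir-100 fell by 0.22 on the log2 scale in the second passage (edgeR, adjusted p = 0.00175 and 0.0473), while mmu-mir-99b was at -0.10 (0.383).

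The miRNAs most like the members were named by the Pearson correlation of log2(CPM + 1), as a description. Over the 31 means of tissue and ZT, which share tissues and libraries, mmu-mir-10a was most like mmu-mir-3105 (r = 0.992), mmu-mir-194-1 (0.991), mmu-mir-122 (0.988), mmu-mir-192 (0.987) and mmu-mir-6972 (0.986), of 399 miRNAs. mmu-mir-122 and mmu-mir-192 are abundant in hepatocytes. mmu-mir-10b was most like mmu-mir-28a (0.964), mmu-mir-130a (0.959), mmu-mir-148a (0.926), mmu-mir-871 (0.925) and mmu-mir-3105 (0.922). Over these means the liver groups lie far from the brain groups, so these values mostly rank liver against brain. Between libraries of 1 tissue the neighbours were others. In liver mmu-mir-10a was most like mmu-mir-30a (r = 0.73), mmu-mir-145a (0.64) and mmu-mir-143 (0.62), of which mmu-mir-143 and mmu-mir-145a mark smooth muscle. All 77 liver libraries entered these values, ZT9 replicate 4 and ZT12 replicate 4 among them. How the values change without those libraries was not tested. In hypothalamus, striatum and cortex it was most like mmu-mir-10b, followed by mmu-mir-100 (0.68) and mmu-mir-146a (0.68) in hypothalamus, mmu-mir-26b (0.72) and mmu-mir-140 (0.69) in striatum, and mmu-mir-146a (0.45) and mmu-mir-184 (0.38) in cortex.

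mmu-mir-10b was most like mmu-mir-183 (0.50), mmu-mir-30a (0.44) and mmu-mir-10a (0.40) in liver, likewise over all 77 libraries. After mmu-mir-10a it was most like mmu-mir-223 (0.63), a myeloid miRNA, and mmu-mir-143 (0.63) in hypothalamus, and mmu-mir-140 (0.74) and mmu-mir-26b (0.72) in striatum. In cortex mmu-mir-223 (0.60), mmu-mir-205 (0.55) and mmu-mir-126a (0.54), an endothelial miRNA, came before mmu-mir-10a, which was 6th.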

How the data were processed

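Small RNA was sequenced from 273 libraries of 4 tissues. Per the labels' protocols, total RNA was extracted with a miRNeasy kit, checked on a Bioanalyzer and enriched for small RNA before library construction. The deposited tables hold raw counts per library and miRNA hairpin, made by the authors without normalization. Per the submitters' processing notes the tools were STAR 2.7.3a and HTSeq 0.10.0, on GRCm38 (mm10); adapter trimming and the treatment of multiply matching reads are not given in the sources used here. A hairpin count adds both arms. Tissue, time and animal code came from the labels.

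Tests across miRNAs used edgeR 4.0.16 (R 4.3.3) with TMM, filterByExpr, quasi-likelihood F tests and Benjamini-Hochberg adjustment over all tested miRNAs; edgeR steps were tested on simulated data. The tissue fit held tissue and ZT, the rhythm fit sine and cosine terms with a 24 h period, and the passage and run fits ZT. DESeq2 1.42.0, other scalings, no filter, an animal block, run as a term and left-out libraries were alternatives. Ratios, low members and correlations used permutation tests with 100000 resamples in NumPy 2.4.6, with ranks from SciPy 1.17.1. CPM used library totals. Libraries of 1 tissue carry different animal codes: 79 codes occurred, 78 of them in at least 2 tissues, and the code pairs tissues as libraries of the same animal, although deviations from the group means of same-code libraries had median correlations of only -0.05 to 0.03. No libraries were identical. Named miRNAs were all 6 members, the 3 miR-99 and miR-100 genes, the 5 closest miRNAs over the 31 group means and the 3 closest within each tissue. The members, lists and tests were chosen with earlier results of these data known.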

Additional observations from a re-analysis of the deposited data

Results flagged for a closer look

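The tissue and ZT groups of 4 to 10 libraries were each checked on 3 measures, 48 checks in all. In 10 of these a library lay far from the others of its group. A chance rate of about 1 in 20 would need independent checks and normal values, and the ratio is built from the other measures. Larger groups were not checked, such as liver ZT9 (n = 11) with its library of 122387 CPM of mmu-mir-10a. All 10 flagged values were in striatum and came from 4 libraries. For mmu-mir-10a they were ZT3 replicate 5 with 758.6 CPM and ZT6 replicate 5 with 1475 CPM. For mmu-mir-10b they were ZT3 replicate 5 with 1777 CPM, ZT6 replicate 5 with 3754 CPM, ZT9 replicate 9 with 1871 CPM and ZT21 replicate 3 with 4844 CPM. The ratio of mmu-mir-10b to mmu-mir-10a stood out in the same 4 libraries, at 2.34 in ZT3 replicate 5, 2.54 in ZT6 replicate 5, 2.35 in ZT9 replicate 9 and 3.45 in ZT21 replicate 3. The choroid plexus and vessel markers of these libraries are given in the report, and their part was not tested.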

How the results depend on the processing

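The 7 tissue calls on members became 16 with no filter on low counts, which also let the 4 low members into the fit (5 of the added calls were of mmu-mir-615, 3 of mmu-mir-196b and 1 of mmu-mir-196a-2), and the 4 run calls became 2 on library totals, where both cortex calls were lost. The cause was not tested. Over all tested miRNAs, a tissue comparison called 96 to 651 of 1004 with no filter and 56 to 339 of 414 with it. Without the filter both cortex run calls were lost as well, while both members in striatum and mmu-mir-10b in liver passed. The other counts of calls stayed within 1.5 times under every alternative run, and no called value changed sign. Leaving out single libraries in turn gave 7 to 7 tissue calls (4 libraries tried), 0 to 0 rhythm calls (22) and 1 to 1 passage calls (53). With the animal code as a replicate block, the tissue calls on members were again 7, and beside the mmu-mir-10b values of striatum in the report it changed no other call. Among values that were not called, the daily range of mmu-mir-10b in striatum lay between 0.30 (run as a term) and 1.95 (0 to 21 h alone), that of mmu-mir-10a in striatum was 0.01 on library totals, and the passage ratio of mmu-mir-10b in hypothalamus was -0.02 with run as a term. Leaving out the 9 libraries that stood apart, or the 2 striatum libraries together, was chosen after seeing the data. The miR-196 genes and mmu-mir-615 lie near the floor, where a library without a count still allows 0.573 CPM or more. For mmu-mir-196a-1 and mmu-mir-196a-2 it is also not given how reads matching both loci were shared. What sets these low counts was not tested. Of the single-member values, 604 kept their side of the threshold, 15 gained it and 5 lost it.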
